A study of Mus musculus with 9 samples.

Results

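MR20 is a population of mouse mammary carcinoma cells that survived methotrexate, and it was compared with the parental 4T1 line across all genes that the arrays name. Methotrexate is a folate antagonist that deprives dividing cells of the one-carbon units needed for thymidylate and purines. 4T1 is a triple-negative mammary adenocarcinoma line of BALB/c origin. The sample labels give 20 µg/ml methotrexate, whereas the study's text names the line as resistant at 20 ng/ml, and treatment lasted up to 2 weeks until colonies of survivors were visible. The survivors were pooled and grown for 2 weeks without drug before the RNA was taken, and untreated 4T1 cells of the same batch were grown in parallel. Each line was measured on 3 whole-transcript arrays, so 6 of the 9 arrays of the series carry this comparison, and all 19938 genes with a probe set of exactly 1 gene symbol were used. Another line, DR500, was selected from 4T1 with doxorubicin up to 500 ng/ml according to the protocol and the study, although its labels name methotrexate. It is given here beside MR20, with its own difference from the shared 4T1 arrays or with the test of MR20 against it. No treatment or allele is shared by the 3 lines beyond their origin from 4T1. The labels call the arrays of 4T1 and MR20 biological replicates, but a single selection of MR20 is described and nothing says that the triplicates came from separate selections, so the p-values reflect nothing beyond how far these triplicates differ, which may be technical.

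The values are log2 expression values that the authors made with robust multi-array averaging (RMA), and 1 unit is a 2-fold difference in signal. Levels of different genes cannot be compared on this scale, since probes differ in brightness. The median over all probe sets lay between 6.29 and 6.38 on the 6 arrays, and correlations across genes were 0.998 to 0.999 within a line and 0.985 to 0.987 between 4T1 and MR20. All 10 epithelial identity markers of 4T1 were bright in both lines, with an average log2 level of 11.68 to 11.73 on the 4T1 arrays and 11.83 to 11.85 on the MR20 arrays, and 6 of them rose and none fell. The pan-leukocyte gene Ptprc averaged 5.17 in 4T1 and 5.18 in MR20, the endothelial gene Pecam1 5.13 in both, and both values are below the median of the arrays. Of 24 leukocyte, 13 fibroblast and 12 endothelial markers, 2, 1 and 0 rose in MR20 and 1, 2 and 0 fell. Of these rises, 1 leukocyte and 1 fibroblast marker passed 2-fold. The study's own table gives Cd68, a member of the leukocyte list, as higher in MR20. The average log2 level of the leukocyte list was 5.43 to 5.49 on the 4T1 arrays and 5.50 to 5.56 on the MR20 arrays, that of the fibroblast list 5.85 to 5.97 and 5.82 to 5.90, and that of the endothelial list 5.55 to 5.64 and 5.57 to 5.71.

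A gene is said here to have risen or fallen when limma's adjusted p was under 0.05, and to be called when its difference was also larger than 2-fold. Of all genes, 3064 (15.4%) rose and 3409 (17.1%) fell in MR20. Called genes were fewer, with 281 rises (1.41%) and 216 falls (1.08%). None of these 497 genes had overlapping arrays, but the 2-fold limit largely selects for such separation, so it adds no support to the calls. Genes linked to interferon, of which 140 of 175 measured rose and 5 fell, made up 103 of the called rises and none of the called falls. They are set aside in what follows, which leaves 178 called rises and 216 called falls. The median difference over all genes was -0.01. Among the 11288 genes above a brightness filter described below, 25.3% rose and 28.1% fell. List counts are to be read beside these shares and those of all genes.

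The 15 largest falls outside the interferon list were spread over enzymes, lysosomal proteins and surface proteins. The largest were those of Zfp979, a zinc finger gene, and of Cmbl, which encodes the hydrolase carboxymethylenebutenolidase. Zfp979 read 6.80, 7.04 and 7.22 on the 4T1 arrays and 3.67, 3.54 and 3.51 on the MR20 arrays. Its difference was -3.45 (SE 0.11, adjusted p = 1.12e-08 from limma), but zinc finger genes of this class have close copies that its probes may share. Of all 347 Zfp genes measured, 53 rose and 68 fell, and only 4 fell beyond 2-fold. Cmbl read 8.27, 8.22 and 8.42 in 4T1 and 4.77, 5.17 and 4.62 in MR20, again a difference of -3.45 (SE 0.13, adjusted p = 2.72e-08), and the MR20 levels of both genes were below the median of every array, so that the sizes of these falls rest on low signal in MR20. In neither gene did the lowest 4T1 array come near the highest MR20 array.

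Cpq, which encodes the lysosomal carboxypeptidase Q, fell by 3.27 (SE 0.17), from 8.21 to 8.62 on the 4T1 arrays to 4.74 to 5.54 on the MR20 arrays. Hexa, the alpha subunit of the beta-hexosaminidase that degrades gangliosides, read 7.99, 7.89 and 8.03 in 4T1 and 5.11, 5.19 and 5.29 in MR20. Its difference was -2.77 (SE 0.08, adjusted p = 7.35e-09). Clybl, a mitochondrial citramalyl-CoA lyase, read 9.49, 9.65 and 9.72 in 4T1 and 6.76, 6.45 and 6.67 in MR20, and fell by 2.99 (SE 0.09, adjusted p = 1.08e-08). Car9, the surface carbonic anhydrase of hypoxic tumor cells, read 10.05, 10.08 and 9.95 in 4T1 and 7.14, 7.21 and 6.79 in MR20, and fell by 2.98 (SE 0.10). Bcl11a, a transcription factor, fell by 2.75. Gatm, the first enzyme of creatine synthesis, fell by 2.69, and Scd1, the desaturase that makes monounsaturated fatty acids, fell by 2.64. The other genes of the 15 were Tlcd4 (-2.63), the arsenite methyltransferase As3mt (-2.61), the calcium-binding S100a16 (-2.53), Fgfbp1 (-2.47), Bspry (-2.40) and Mxra8 (-2.30). Every MR20 array lay below every 4T1 array in all 15 of these genes, as the rule for naming them required.

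**Figure D1:**
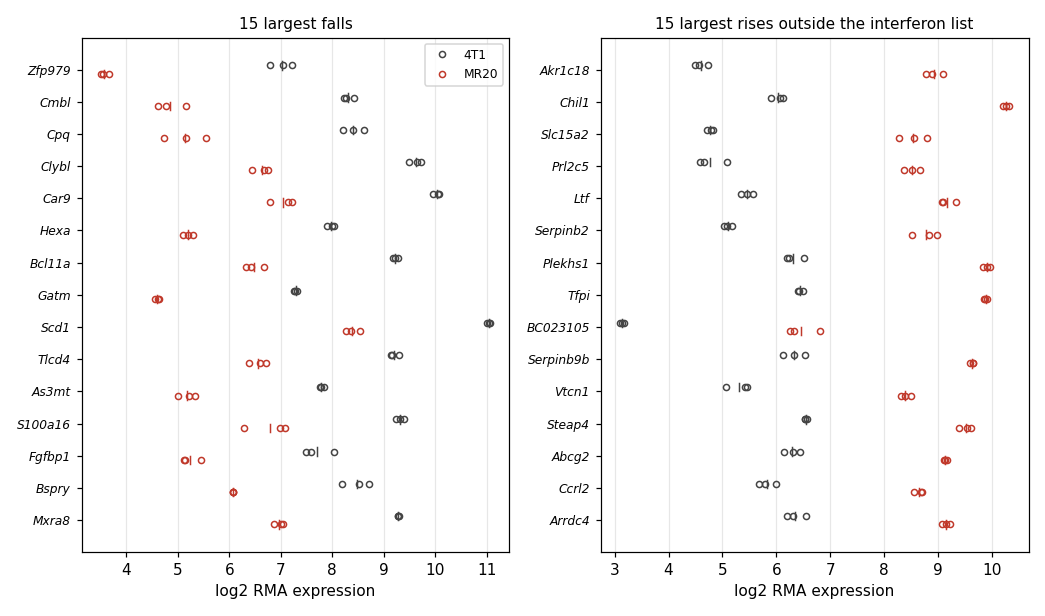
Log2 RMA expression on each array (open circles) for the 15 largest falls and the 15 largest rises outside the interferon list, with 4T1 in grey and MR20 in red and the mean of each line as a vertical bar. The lines are separated in every gene, and Cpq and S100a16 show the widest spread between MR20 arrays among the falls.

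Among the gene lists, the enzymes that make non-essential amino acids and convert them had the lowest median difference. Cells build serine, glycine, alanine, aspartate, proline and cysteine from intermediates of glycolysis and the citric acid cycle. Many of these enzymes, together with amino acid transporters and aminoacyl-tRNA synthetases, are transcribed under the control of ATF4, a factor whose translation rises when amino acids run short. Of 30 measured amino acid synthesis enzymes, 21 fell (70.0% against 17.1% of all genes), 2 rose and 7 did not pass. Their median difference was -0.63, against -0.01 for all genes, and 11 fell beyond 2-fold. Of 53 measured ATF4 and amino acid stress targets, 42 fell (79.2%), 2 rose and 9 did not pass, with a median of -0.48. The lists share 9 members, and these genes are mostly bright, so the 28.1% of the 11288 genes above the brightness filter that fell is the closer background. Both lists were chosen with earlier results of these data known, so their counts describe their members only. The first list also holds enzymes of linked steps, such as Gatm of creatine synthesis, Pck2, Gcat and the arginase Arg2.

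The transaminases and mitochondrial enzymes led the first list. Gpt2, the mitochondrial alanine aminotransferase, read 9.36, 9.38 and 9.42 in 4T1 and 7.86, 7.79 and 7.48 in MR20, and fell by 1.68 (SE 0.10, adjusted p = 1.16e-06). Pck2, the mitochondrial phosphoenolpyruvate carboxykinase, read 9.69, 9.68 and 9.68 in 4T1 and 8.03, 8.08 and 8.01 in MR20, and fell by 1.64 (SE 0.05, adjusted p = 1.01e-08). The arrays of the lines lay far apart in both genes. Gcat, of threonine breakdown to glycine, fell by 1.63, the arginase Arg2 by 1.55 and Aldh18a1, which starts proline synthesis, by 1.43. In the serine pathway Psat1 read 12.43, 12.38 and 12.43 in 4T1 and 11.24, 11.30 and 11.29 in MR20, and Psph, which completes serine, fell by 1.13. The remaining members beyond 2-fold were Kyat3 (-1.31), Got1 (-1.29) and Cth (-1.13), a kynurenine aminotransferase, the cytosolic aspartate aminotransferase and the enzyme that makes cysteine. In contrast, Glul, the glutamine synthetase, rose by 0.74.

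Of the ATF4 targets outside the first list, Aldh1l2 (-1.48) and Gtpbp2 (-1.2, adjusted p = 6.92e-06 from limma) also fell beyond 2-fold. The factor itself and the targets named next moved by smaller amounts. Atf4 read 9.92, 9.92 and 10.11 in 4T1 and 9.32, 9.38 and 9.46 in MR20, a fall of 0.60 (adjusted p = 8.77e-05). Asns, the asparagine synthetase, fell by 0.56, Trib3, a pseudokinase, by 0.79, Chac1, which cleaves glutathione, by 0.74, and Nupr1, a stress-induced nuclear protein, by 0.80. Among the synthetases of the list, Sars fell by 0.62, Nars by 0.47 and Lars by 0.47, whereas Wars (0.17) and Iars (-0.20) did not pass. Ddit3 also did not pass (-0.12, adjusted p = 0.437), and Atf3, a stress-induced factor, rose by 0.33. Several single genes were named here after their values were seen, namely Asns, Trib3, Chac1, Nupr1, Slc7a11, Atf4, Ddit3, Atf3, Glul and the synthetases.

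Promoters were read for these lists because members that fall together may carry a common element. The motif TGATGNAA, a composite element that ATF4 binds with a C/EBP partner, was searched on both strands in the 250 bases before the start of each gene, in RefSeq sequences of build GRCm38.p6. The following windows of 60 bases hold a match, in capitals, and are shown as examples among genes that fell. They are Chac1 at chr2:119351023-119351082 on the plus strand, Nupr1 at chr7:126625547-126625606 on the minus strand, Pck2 at chr14:55540137-55540196 on the plus strand, Got1 at chr19:43524674-43524733 on the minus strand and Slc7a11 at chr3:50443646-50443705 on the minus strand.
Chac1: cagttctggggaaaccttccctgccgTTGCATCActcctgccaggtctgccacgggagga
Nupr1: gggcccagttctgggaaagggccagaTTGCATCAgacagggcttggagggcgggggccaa
Pck2: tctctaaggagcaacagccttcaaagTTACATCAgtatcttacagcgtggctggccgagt
Got1: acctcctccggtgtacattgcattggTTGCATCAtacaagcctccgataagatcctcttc
Slc7a11: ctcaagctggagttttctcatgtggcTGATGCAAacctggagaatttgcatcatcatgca
In the first 4 windows the match lies on the other strand and so reads as the reverse complement of the motif, and in that of Slc7a11 it reads forward. The Slc7a11 window also holds a match on the other strand, left in lower case, so the capitals mark 1 match in each window.

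The motif was found in 1056 of 27025 genes with a promoter (3.91%). It was found in 8 of the 33 ATF4 targets that fell and had a promoter in the table (24.2%), and in 3 of the 10 that did not fall (30.0%). Of the amino acid synthesis enzymes it was found in 3 of 18 that fell and 0 of 6 that did not. The list was drawn up from known ATF4 targets, so a higher share than in all genes is a property of the list and not of the fall. The motif TCACNCCAC, which SREBP factors bind, was likewise found in 331 genes (1.22%), in 0 of 12 cholesterol synthesis genes that fell and in 1 of 8 that did not. Of the fatty acid and glycerolipid genes, 0 of 20 that fell held it and 1 of 22 that did not. A match is a description of the sequence, and no binding was measured.

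Much of the amino acid group was also low in DR500, which shares the 4T1 arrays, and the lines were tested against each other. The DR500 median was -0.38 for the synthesis enzymes and -0.43 for the ATF4 targets. Of the 30 enzymes, 13 were lower in MR20 than in DR500 and 5 were higher. Of all genes above the brightness filter, 29.3% were lower and 34.2% higher, which is the background for such counts here and below. Gcat differed most plainly, since it averaged 9.81 in DR500, and MR20 minus DR500 was -1.55 (adjusted p = 3.66e-08). Gatm did not differ beyond its error between the lines (-0.04, adjusted p = 0.585). Slc7a11, the cystine transporter, fell by 0.45 in MR20 and was 0.77 above 4T1 in DR500.

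**Figure D2:**
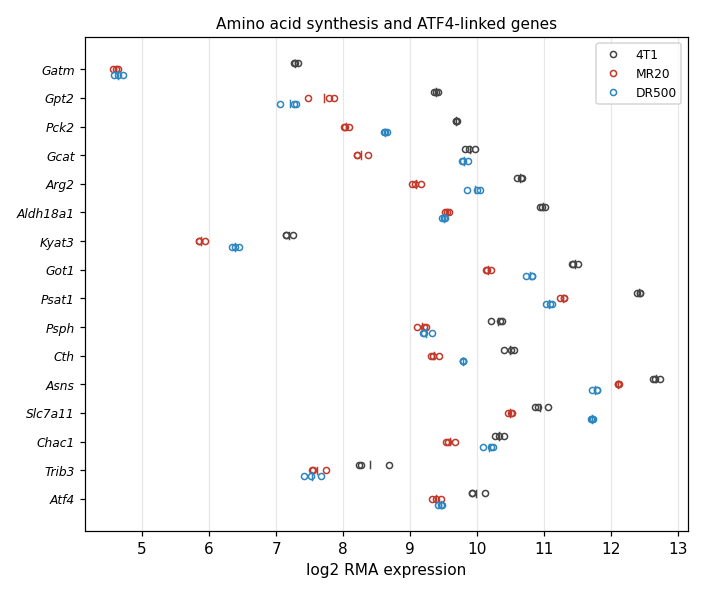
Log2 RMA expression on each array for the 11 amino acid synthesis enzymes that fell beyond 2-fold in MR20 and for Asns, Slc7a11, Chac1, Trib3 and Atf4, with 4T1 in grey, MR20 in red and DR500 in blue and the mean of each line as a vertical bar. All MR20 arrays lie below all 4T1 arrays, while DR500 lies near MR20 in Gatm, near 4T1 in Gcat and above 4T1 in Slc7a11.

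The breakdown of branched-chain amino acids, ketone bodies and organic acids takes place mostly in mitochondria, and most genes of this list fell. The list was chosen with earlier results of these data known, so its counts describe its members only. Of 45 measured, 30 fell (66.7%, against 28.1% of all genes above the brightness filter), 4 rose and 11 did not pass. The median was -0.48, with 9 falls beyond 2-fold. Beside Cmbl and Clybl, Cryl1, a crystallin that acts as a gulonate dehydrogenase, fell by 2.05 (SE 0.06). Dbt, the E2 subunit of the branched-chain keto acid dehydrogenase, read 9.30, 9.36 and 9.28 in 4T1 and 7.61, 7.47 and 7.52 in MR20, and fell by 1.78 (SE 0.06, adjusted p = 2.29e-08). Its E1 beta partner Bckdhb fell by 0.74, and the E1 alpha subunit Bckdha did not pass (0.21, adjusted p = 0.0789). Bckdk, the kinase that inactivates this complex, rose by 0.40. Further falls were those of Adhfe1 (-1.27), Gstz1 (-1.22) and Oxct1 (-1.20), the last being the enzyme that activates ketone bodies for use. In the path from propionate, Pcca fell by 1.12, Pccb by 0.87 and Mmut by 0.95. The 4 members that rose were Acadl (0.63), Bckdk, Cpt1a (0.39) and Acadvl (0.34), and 3 of these act in long-chain fatty acid oxidation. MR20 was below DR500 in 21 of the 45 genes and above it in 8. Cmbl showed the widest gap, since it averaged 11.25 in DR500.

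Lipid synthesis genes fell in larger numbers than they rose. Of 24 measured cholesterol synthesis genes 16 fell and 3 rose, with a median of -0.34, but only Insig1 passed 2-fold. Insig1, which retains the SREBP complex when sterols are ample, fell by 1.54, the sterol oxidase Msmo1 by 0.87, the regulator Srebf1 by 0.62 and the demethylase Cyp51 by 0.60. Pmvk and Mvd of the mevalonate path fell by 0.60 and 0.59. In DR500 the same list had a median of -0.69, and 15 members were higher in MR20 than in DR500.

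Of 50 fatty acid and glycerolipid genes, 26 fell, 10 rose and 14 did not pass. Scd1 averaged 11.03 ± 0.03 (SD, n = 3) in 4T1 and 8.39 ± 0.14 in MR20, a 6.25-fold fall with SE 0.07, and Scd2, its paralog, fell by 1.05. Bscl2, which encodes the lipid droplet protein seipin, read 9.58, 9.68 and 9.51 in 4T1 and 7.55, 7.42 and 7.50 in MR20, and fell by 2.10. The ceramide synthase Cers3 fell by 1.93, the acyl-CoA synthetase Acsl6 by 1.30, and the difference of the choline kinase Chka was -1.20. The core synthase did not follow, since Fasn rose by 0.50 and Acaca by 0.28. The test between lines set Scd1 apart, since MR20 minus DR500 was -3.48 (adjusted p = 2.43e-10).

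Glycolysis did not move as a group. Of 34 genes, 9 rose and 8 fell, with a median of 0.03. Ldhb, the lactate dehydrogenase of the heart-type isoform, read 9.28, 9.39 and 9.25 in 4T1 and 7.30, 7.18 and 7.00 in MR20, and fell by 2.14 (SE 0.08, adjusted p = 3.03e-08). Ldha, by contrast, lay at 13.23, 13.20 and 13.20 in 4T1 and 13.34, 13.17 and 13.26 in MR20, and those arrays overlap. Khk, the ketohexokinase, fell by 1.39 and Aldoc, an aldolase, by 1.29, whereas Slc2a6, a hexose transporter, rose by 1.73, Pfkfb3, which makes the activator of phosphofructokinase, by 0.83 and Pdk3, an inhibitor of pyruvate dehydrogenase, by 0.64.

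Genes of the hypoxia response were likewise divided, with 15 falls (35.7%) and 11 rises (26.2%) among 42. Of all genes above the brightness filter, 28.1% fell and 25.3% rose. The carbonic anhydrases of the cell surface, which hydrate carbon dioxide and acidify the outside of the cell, include Car9 (-2.98) and Car12 (-1.74), which both fell. Car12 read 9.63, 9.52 and 9.52 in 4T1 and 7.93, 7.83 and 7.70 in MR20. Of the 16 carbonic anhydrases measured, 3 fell and 1 rose, and only 6 had a signal above the brightness filter. Vegfa, the endothelial growth factor, fell by 0.89 and the glucose transporter Slc2a1 by 0.32. Nppb, a natriuretic peptide, rose by 2.02, Edn1, endothelin 1, by 1.43 and Bhlhe40, a transcriptional repressor, by 1.39. MR20 was below DR500 in 22 of the 42 genes, with a difference of -2.54 in Car9 and -2.57 in Car12.

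Of 60 lysosomal genes, 24 fell (40.0%, against 28.1% of all genes above the brightness filter), 13 rose (21.7% against 25.3%) and 23 did not pass, with a median of -0.06. After Cpq and Hexa, the falls were led by Dpp7, a dipeptidyl peptidase (-1.67), Arsa, the sulfatase of sulfatides (-1.07), and Asah1, the acid ceramidase (-0.80). Arsb, a related sulfatase, moved the other way, from 9.23, 9.15 and 8.98 in 4T1 to 10.26, 10.28 and 10.20 in MR20, a rise of 1.13 (SE 0.07). DR500 lay above 4T1 on this list with a median of 0.34, and 37 members were lower in MR20 than in DR500.

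**Figure D3:**
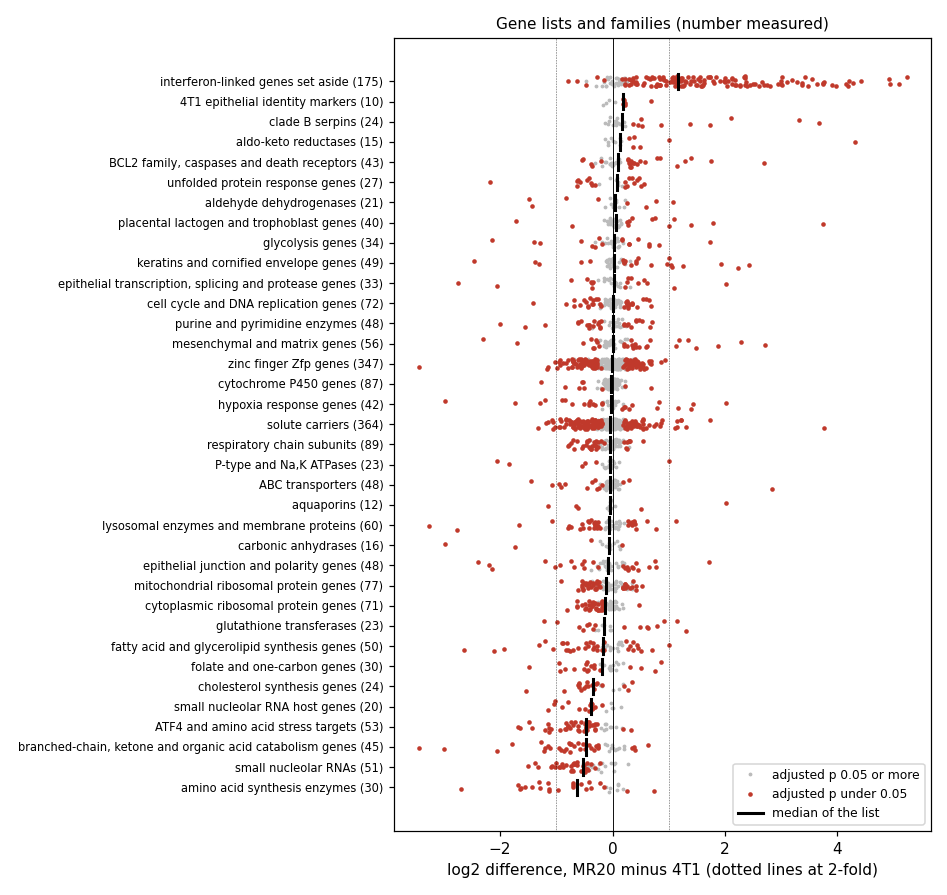
Log2 difference, MR20 minus 4T1, for each measured member of the gene lists and families (points, red where the adjusted p is under 0.05), with the median of each list as a black bar and the number measured in brackets. Amino acid synthesis enzymes, small nucleolar RNAs, organic acid catabolism genes and ATF4 targets have the lowest medians, and most other lists have a median near 0 with members far out on both sides.

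The solute carriers move nutrients, ions and drugs across membranes. Of 364 measured, 87 fell (23.9% against 17.1% of all genes), 50 rose (13.7% against 15.4%) and 227 did not pass, and 186 were above the brightness filter. Beyond 2-fold, 7 fell and 8 rose. Slc15a2, the proton-coupled peptide transporter, stood alone in size, from 4.79, 4.83 and 4.71 in 4T1 to 8.79, 8.55 and 8.28 in MR20, a rise of 3.76 (SE 0.14, adjusted p = 3.31e-08). Slc15a3, a lysosomal transporter of histidine and peptides, rose by 1.21, Slc43a2, an amino acid transporter, by 1.30 and Slc25a10, the mitochondrial dicarboxylate carrier, by 1.21. Slc24a3, a sodium, calcium and potassium exchanger, fell by 1.32.

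Of the amino acid carriers in the ATF4 list, Slc7a5, the large neutral amino acid carrier, fell by 0.83 and its heavy chain Slc3a2 by 0.49. The glycine carrier Slc6a9 fell by 0.82, the glutamine carrier Slc1a5 by 0.76, Slc1a4 by 0.67 and the arginine carrier Slc7a1 by 0.62. Slc38a2, another glutamine carrier of the list, rose by 0.18, as did the carriers Slc43a2, given above, and Slc6a6, of taurine (0.88), which the list does not hold. These carriers were named after their values were seen.

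Of 48 ABC transporters, 11 fell (22.9% against 17.1% of all genes) and 3 rose (6.25% against 15.4%), and 23 were above the brightness filter. Abcg2, an efflux pump whose known substrates include methotrexate, read 6.14, 6.31 and 6.44 in 4T1 and 9.13, 9.17 and 9.12 in MR20. It rose by 2.84 (SE 0.11, 7.17-fold, adjusted p = 5.66e-08 from limma). DR500 was also above 4T1 in Abcg2, by 1.12 (adjusted p = 2.02e-05 from limma). The level in MR20 exceeded that in DR500 by 1.72 (adjusted p = 8.09e-07 from limma). Abcb1b, a P-glycoprotein gene, moved in the opposite direction, from 10.05, 10.05 and 10.04 to 8.63, 8.60 and 8.56, a fall of 1.45, and its paralog Abcb1a fell by 0.85. In DR500 both P-glycoprotein genes were above 4T1, by 1.32 and 1.27, and MR20 minus DR500 was -2.77 for Abcb1b and -2.11 for Abcb1a. The mitochondrial Abcb8 fell by 1.07, Abcd4, of vitamin B12 transport, by 0.95, and the sterol pump Abcg1 by 0.92. Abcc1 rose by 0.19, and Abcc4 did not pass (-0.06).

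Water channels and ion pumps held a few large changes. Of 12 aquaporins 2 rose and 3 fell. Aqp9, an aquaglyceroporin, rose by 2.01, and the water channel Aqp1 fell by 1.14, Aqp11 by 0.65 and Aqp5 by 0.61. Among 23 P-type ATPase genes, Atp1b1, the beta subunit of the sodium pump, read 9.47, 9.41 and 9.51 in 4T1 and 7.45, 7.36 and 7.40 in MR20, and fell by 2.06 (SE 0.06). Atp8b1, a phospholipid flippase, fell by 1.84. In total 5 of the 23 fell (21.7%) and 1, Atp13a4, rose (4.35%), against 17.1% and 15.4% of all genes.

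The folate genes, on which the drug acts, changed modestly. Of 30 measured, 14 fell (46.7%), 4 rose and 12 did not pass, with a median of -0.19. Slc19a1, the reduced folate carrier through which methotrexate enters cells, read 9.95, 10.00 and 9.99 in 4T1 and 8.95, 9.03 and 9.08 in MR20, and fell by 0.96 (SE 0.08, adjusted p = 7.28e-06). The proton-coupled folate transporter Slc46a1 rose by 0.87, from 8.27, 8.08 and 8.31 to 9.14, 9.10 and 9.03, and the folate receptor Folr1 rose by 0.75. Thus the 3 carriers did not move in a common direction. Tyms, the thymidylate synthase, fell by 0.39 (adjusted p = 0.000888). Fpgs, which retains methotrexate in cells by adding glutamates, differed by 0.18 (adjusted p = 0.112), and Ggh, which removes them, by 0.10 (adjusted p = 0.482). The mitochondrial one-carbon enzymes Aldh1l2, Mthfd2 and Mthfd2l fell by 1.48, 0.94 and 0.84, and Mtr, the methionine synthase, rose by 0.50. In DR500, 18 members of the list fell and 2 rose, and MR20 was above DR500 in 14. Slc19a1 also fell in DR500 (-0.67) and Slc46a1 also rose there (0.48), while Folr1 did not pass (0.06). For Slc19a1, MR20 minus DR500 was -0.29 (adjusted p = 0.0106 from limma).

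Purine and pyrimidine enzymes showed no shift in their median (0.01), with 17 falls (35.4%) and 11 rises (22.9%) among 48. The shares of all genes above the brightness filter were 28.1% and 25.3%. Nt5e, the ectonucleotidase that makes extracellular adenosine, read 11.88, 11.92 and 11.92 in 4T1 and 9.91, 9.78 and 10.03 in MR20, a 4.00-fold fall (SE 0.07, adjusted p = 1.62e-08). Nme3, a nucleoside diphosphate kinase, differed by -1.56 and Adk, the adenosine kinase, by -1.20, and both fell. Samhd1, a deoxynucleotide hydrolase, rose by 0.70 and the AMP deaminase Ampd3 by 0.67.

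MR20 cells kept the epithelial profile of 4T1 at the level of its main markers. Krt8 and Krt18 rose by 0.19 and 0.21, and Cdh1, E-cadherin, lay at 11.10, 11.03 and 11.02 in 4T1 and 10.95, 10.91 and 10.95 in MR20 (-0.11, adjusted p = 0.323). Epcam (-0.17, adjusted p = 0.0503) and the splicing factor Esrp1 (0.04) did not pass either. Of 48 junction and polarity genes, 13 rose and 13 fell. Among those that fell, Bspry read 8.52, 8.19 and 8.72 in 4T1 and 6.08 on each MR20 array. Rab25, a GTPase of epithelial recycling, fell by 2.19, and the claudins Cldn9 (-2.15) and Cldn12 (-1.02) and Mal2, of transcytosis (-1.21), fell as well. Pard6g, a polarity protein, rose by 1.71. Against DR500, 34 of the 48 genes were higher in MR20 and 5 were lower. Of all genes above the brightness filter, 34.2% were higher and 29.3% lower. In DR500 34 of the 48 fell and 3 rose, with a median of -0.76, against a median of -0.08 in MR20.

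Transcription factors and proteases of epithelia moved both ways, with 9 rises and 8 falls among 33. Ehf, an epithelial ETS factor, rose by 2.02 (SE 0.19), from 8.69, 8.63 and 8.64 to 10.78, 10.58 and 10.66. Tfap2c rose by 1.10, Tfap2a by 0.61, and the membrane protease Tmprss11e fell by 2.06 from a level near 11.6. Esrp2 fell by 0.74 while Esrp1, its partner in epithelial splicing, did not pass.

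Keratins and cornified envelope genes rose in 17 of 49 cases (34.7% against 15.4% of all genes) and fell in 5, but 31 of the list were below the brightness filter, and the median was 0.03. Krt14, the basal keratin, averaged 9.01 ± 0.03 (SD) on the 4T1 arrays and 11.25 ± 0.09 on the MR20 arrays, and rose by 2.24 (SE 0.06, adjusted p = 6.44e-09), without its partner Krt5, which stayed near 5.5 on all 6 arrays (0.15, adjusted p = 0.363). Krt16 rose by 1.25 and Krt19 by 0.68. Of 19 late cornified envelope genes (Lce), 8 rose and none fell, and 11 did not pass, with Lce1h going from 7.12, 7.30 and 6.85 to 9.79, 9.61 and 9.11, and Lce1i rising by 1.93, and these paralogs lie next to each other on chromosome 3 and may share probes. Fgfbp1, a carrier of fibroblast growth factors, Nipal4, a magnesium transporter, and Anxa8, an annexin, fell by 2.47, 1.38 and 1.30. The number of rises in this list rested on single arrays, being 11 when 4T1 replicate 2 or 4T1 replicate 3 was left out.

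Of 56 mesenchymal and matrix genes, 20 rose (35.7%, against 25.3% of all genes above the brightness filter), 9 fell and 27 did not pass. Their median was 0.01. In DR500 33 rose and 9 fell, with a median of 0.34, and MR20 was below DR500 in 30 of the 56 and above it in 9. Tnc, tenascin C, read 6.48, 6.36 and 6.48 in 4T1 and 9.32, 9.11 and 9.02 in MR20, and rose by 2.71 (SE 0.09, adjusted p = 1.12e-08). Mmp9, a gelatinase, rose by 2.29, from 10.51, 10.63 and 10.58 to 12.87, 12.85 and 12.89. The integrin gene Itgb3 rose by 1.88 and Pmp22 by 1.48. Loxl4, which cross-links collagen, fell by 1.70 and Mxra8 by 2.30. The repressors of E-cadherin were split, Snai1 (0.37) and Twist1 (0.42) being higher and Zeb1, Zeb2 and Snai2 lower by at most 0.34. Vim rose by 0.20 and Fn1 by 0.21, while the collagen genes Col1a1, Col1a2 and Col3a1 did not pass.

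The 15 largest rises outside the interferon list included secreted and membrane proteins that 4T1 expresses at low levels. Akr1c18, which inactivates progesterone, read 4.50, 4.73 and 4.57 in 4T1 and 9.10, 8.89 and 8.77 in MR20, and rose by 4.32 (SE 0.14, 19.9-fold, adjusted p = 1.22e-08). Chil1, a chitinase-like secreted protein, read 6.12, 6.07 and 5.91 in 4T1 and 10.26, 10.32 and 10.21 in MR20, and rose by 4.23. Since the 4T1 levels were below the median of the arrays, these folds rest on low signal. Ltf, the iron-binding milk protein lactoferrin, rose by 3.71, Plekhs1 by 3.60 and Tfpi, the inhibitor of tissue factor, by 3.43. Vtcn1, a B7 family protein that restrains T cells, rose by 3.09, Steap4, a metalloreductase, by 2.97, Ccrl2, an atypical chemokine receptor, by 2.83 and Arrdc4, an arrestin-domain protein, by 2.79. BC023105 rose by 3.33 and Prl2c5, of the proliferin family, by 3.74, both with paralogs that may share probes. Chil1, Tfpi and Vtcn1 were higher in MR20 than in DR500 by 4.68, 4.44 and 3.09, while Steap4 and Prl2c5 were lower by 2.16 and 0.77.

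The clade B serpins, intracellular inhibitors of proteases such as granzymes and cathepsins, rose in 10 of 24 cases (41.7%) and fell in none. At an unadjusted p under 0.05 from limma the counts were again 10 and 0. Serpinb2 read 5.09, 5.18 and 5.03 in 4T1 and 8.99, 8.52 and 8.84 in MR20, and rose by 3.68 (SE 0.11, adjusted p = 6.23e-09). Serpinb9b rose by 3.31, Serpinb9, an inhibitor of granzyme B, by 2.10, Serpinb8 by 1.73 and Serpinb6b by 1.38. The family lies in clusters on chromosomes 1 and 13, and of its members 6 were above the brightness filter. MR20 was above DR500 in 11 of the 24.

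Of 15 aldo-keto reductases 6 rose and none fell, with the same counts at an unadjusted p under 0.05 from limma. After Akr1c18 the rises were of 1.00 in Akr1b10 and at most 0.49 in the others. Aldehyde dehydrogenases rose in 4 and fell in 4 of 21 cases, with Aldh3a1 up by 1.08. Of 23 glutathione transferases 8 rose and 8 fell, among them Mgst1 (1.30) and Gsto2 (1.15) above and Gstm2 (-0.98) below 4T1. Of 87 cytochrome P450 genes only 13 were above the brightness filter, and Cyp1b1 had the largest change, a fall of 1.28. Of 40 placental genes 11 rose and 2 fell, with Plac8, which is also in the interferon list, and Plac1 up by 1.78 and 1.40 and Eomes, a T-box factor, down (-1.72).

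Of 43 members of the BCL2 family, caspases and death receptors, 19 rose (44.2%, against 25.3% of all genes above the brightness filter), 5 fell and 19 did not pass. Outside the interferon list, which holds 3 of them, 16 of 40 rose and 5 fell. Bcl2l15 read 6.26, 6.29 and 6.29 in 4T1 and 8.94, 8.97 and 9.04 in MR20, and rose by 2.70 (SE 0.08). Tnfrsf26 and Tnfrsf23, death receptor relatives on chromosome 7, rose by 1.76 and 1.40, and Tnfsf10, TRAIL itself, by 1.29. Casp1 and Casp4, the inflammatory caspases, rose by 1.14 and 0.84, and these 2 genes and Tnfsf10 are the members that the interferon list also holds. The anti-apoptotic Mcl1 and Bcl2l2 fell by 0.54 and 0.53, and Bcl2 did not pass (-0.03).

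Cell cycle genes were balanced, with 18 rises and 17 falls among 72 and a median of 0.01. Ccnd2, cyclin D2, was the only member beyond 2-fold, from 10.57, 10.65 and 10.64 to 9.20 on each MR20 array. Gins2, of the replicative helicase, fell by 0.82 and Ccne2 by 0.68, and E2f1 rose by 0.68. Of 27 genes of the unfolded protein response, 10 rose and 10 fell, and Kdelr3, which retrieves proteins to the endoplasmic reticulum, fell by 2.18 (SE 0.06) while Xbp1 and Ern1 fell by 0.62 and 0.57.

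Small nucleolar RNAs, which guide the modification of ribosomal RNA and are released from the introns of host genes, fell in 34 of 51 cases (66.7%) and rose in none, with a median of -0.52. At an unadjusted p under 0.05 from limma 39 were lower and 0 higher. Snord52 read 8.36, 8.31 and 8.65 in 4T1 and 7.03, 6.95 and 6.81 in MR20, and fell by 1.51. Snord22 fell by 1.38 and Snora33 by 1.32. Of 20 measured genes of the host list 15 fell and none rose (15 and 0 at an unadjusted p under 0.05). They were led by Mir17hg (-1.14), which hosts microRNAs and not small nucleolar RNAs but is counted in this list. Snhg5 (-1.04), Rabggtb (-1.03) and Gnl3 (-0.89) followed. Cytoplasmic ribosomal protein genes fell in 31 of 71 cases and rose in 1, by smaller amounts, with a median of -0.14 and Rpl12 lowest (-0.81). Mitochondrial ribosomal genes fell in 26 of 77 cases (33.8%) and rose in 14, and respiratory chain subunits fell in 27 of 89 (30.3%) and rose in 8, shares of falls close to the 28.1% of all genes above the brightness filter. These lists were low in DR500 as well, where the small nucleolar RNA median was -0.96, and 24 of the 51 were higher in MR20 than in DR500 against 3 lower. RNA integrity was not given in the sources used here, and its part in these values was not tested.

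The changes were unevenly spread over the chromosomes. Chromosomes were taken from RefSeq's gene table, and shares were counted over the 11288 genes above the brightness filter, of which 25.3% rose and 28.1% fell in MR20. On chromosome 14, 271 of 383 such genes fell (70.8%) and 16 rose (4.18%), with a median of -0.39. The falls on this chromosome were broad and mostly small, since the tenth percentile of the differences was -0.89 and the ninetieth 0.03. On chromosome 8, 57.8% fell and 5.46% rose, and on chromosome 17, 57.6% fell and 5.58% rose. Chromosomes 3, 19 and 5 followed with 50.4%, 48.7% and 48.4% fallen. In the other direction, 197 of 407 genes on chromosome 13 rose (48.4%) and 26 fell (6.39%), with a median of 0.21, and on chromosomes 7, 6 and 11 the shares that rose were 44.0%, 43.4% and 41.8%. Without the brightness filter the order of the shares at the ends was the same, with 40.5% of 14's genes fallen and 28.8% of 13's genes risen. By the median over all genes, chromosome 8 (-0.13) lay just below chromosome 14 (-0.12).

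Each array showed this pattern. The median difference of chromosome 14 genes from the 4T1 mean was -0.371, -0.399 and -0.402 on the MR20 arrays, against 0.008, -0.016 and 0.009 on the 4T1 arrays. That of chromosome 13 was 0.239, 0.209 and 0.193 on the MR20 arrays. Across all 20 chromosomes the 4T1 arrays stayed between -0.019 and 0.022. All MR20 arrays lay below all 4T1 arrays on 7 chromosomes and above them on 8. With 3 arrays in each line the smallest p of an exact permutation test is 0.1, so the medians are given as descriptions. DNA copy number was not measured in these samples.

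DR500 had a different profile over the chromosomes. Over the genes above the filter, 29.3% were lower and 34.2% higher in MR20 than in DR500. On chromosome 14 the shares were 62.9% and 8.09%, and on chromosome 17 they were 69.8% and 6.29%. The DR500 arrays had medians of -0.072, -0.013 and -0.022 from the 4T1 mean on chromosome 14 and 0.180, 0.123 and 0.134 on chromosome 17. On chromosome 8, by contrast, DR500 lay below 4T1 too, at -0.335, -0.349 and -0.324.

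**Figure D4:**
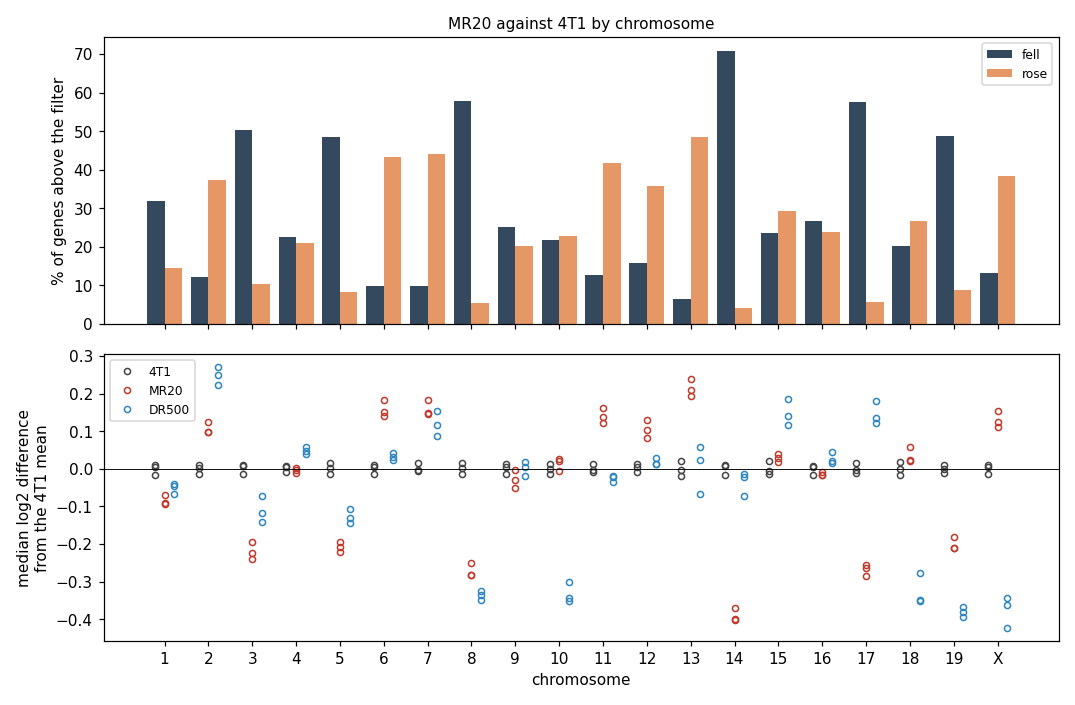
Top, share of genes above the brightness filter on each chromosome that fell (dark bars) or rose (light bars) in MR20 relative to 4T1. Bottom, median log2 difference of the same genes from the 4T1 mean on each array, with 4T1 in grey, MR20 in red and DR500 in blue. MR20 is lowest on chromosome 14 and highest on chromosome 13, and arrays of a line lie close together on every chromosome.

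Along the chromosomes, genes were placed in order and the median was taken over runs of 25 neighbours. The lowest run held 25 genes of chromosome 14 from Nek4 to Oxnad1, with a median of -0.53, and 18 of them fell and none rose. It includes Nt5dc2 (-1.05), Oxnad1 (-0.99), Gnl3 (-0.89), which is required for nucleolar function, Glt8d1 (-0.85), Tnnc1 (-0.84), Bap1 (-0.83), a deubiquitinase and tumor suppressor, and Dph3 (-0.77). The chromatin remodeler Pbrm1 fell by 0.53. Falls on chromosome 14 outside this run included those of Clybl, Cryl1, Pck2, Adk and Pcca. These genes were below 4T1 by more than their chromosome, and relative to its median they still differed by -2.60, -1.66, -1.25, -0.81 and -0.73.

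The next lowest runs were on chromosomes 5 and 15. On chromosome 5, 25 genes from Krit1 to Tmem243 had a median of -0.49, with 14 falls and 1 rise. Both P-glycoprotein genes lie in it, together with Rundc3b, which read 7.72, 7.85 and 7.89 in 4T1 and 5.87, 5.73 and 5.47 in MR20 and fell by 2.13, with Cfap69 (-1.13) and with Cldn12. Steap4 lies in the same run and rose by 2.97, while its neighbours Steap2 and Steap1 fell by 0.50 and 0.37. In DR500 the same 25 genes had a median of 0.24, and 20 of them were lower in MR20 than in DR500.

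On chromosome 15, 25 genes from Deptor to Ndufb9 had a median of -0.48, with 17 falls and 3 rises. Tatdn1, a nuclease gene, read 11.10, 11.11 and 11.16 in 4T1 and 9.49, 9.40 and 9.31 in MR20, and fell by 1.72 (SE 0.08). Zhx2, a transcriptional repressor, fell by 1.63 and Tbc1d31 by 1.05, whereas Has2, a hyaluronan synthase, rose by 0.59. The rest of the chromosome did not follow, since its median over genes above the filter was 0.01.

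Raised runs were shallower. The highest held 25 genes of chromosome 7 from Zfp850 to Mrps12, with a median of 0.33, 16 rises and no fall, among them Samd4b (0.95), Eid2b (0.93), Fbxo17 (0.65) and Med29 (0.63). A run on chromosome 13 from Mtr to Cdk13 had a median of 0.32, with 14 rises, such as Psma2 (0.71), Gpr137b (0.63) and Mtr (0.50), and 1 fall, that of Tbce (-0.25). A run on chromosome 11 from Krt35 to Kat2a, with a median of 0.32 and 13 rises, contains Krt14, Krt16 and Krt19 beside genes of other kinds such as P3h4 (0.80), Jup (0.77) and Klhl11 (0.65). Runs were counted over all genes, and this one also holds Dhx58 (3.19) and Cnp (0.89) of the interferon list.

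**Figure D5:**
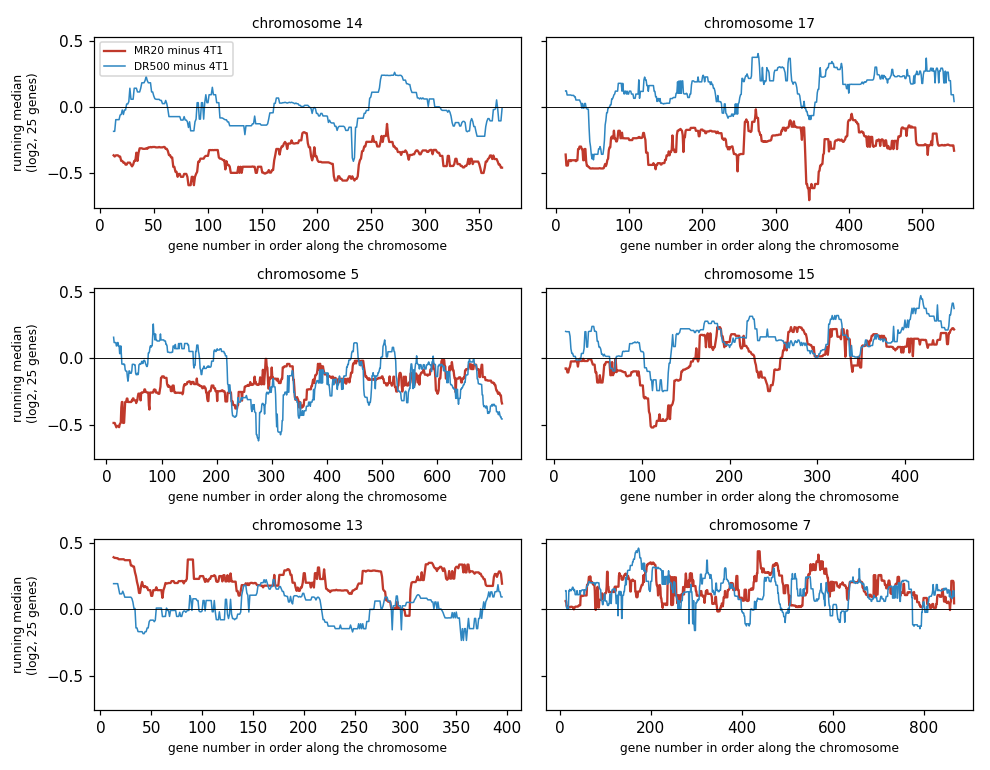
Running median of the log2 difference from 4T1 over 25 neighbouring genes above the brightness filter, in gene order along chromosomes 14, 17, 5, 15, 13 and 7, for MR20 (red) and DR500 (blue). MR20 stays below 0 along the whole of chromosomes 14, 17 and 5 and above 0 along most of chromosomes 13 and 7, and on chromosome 15 it is lowest over 1 stretch and lies above 0 along much of the rest.

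Since chromosome medians moved by up to 0.39, each gene above the filter was also set against the median of its chromosome, while genes below the filter kept their values, an alternative chosen after seeing the data. The called falls then numbered 161 in place of 216 and the called rises 264 in place of 281. Of the ATF4 targets 46 fell, of the amino acid synthesis enzymes 18 and of the organic acid genes 25. Their medians were -0.47, -0.51 and -0.45.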

How the data were processed

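Values were taken from the deposited table, in which the authors give log2 expression after background correction, quantile normalization and probe summary by RMA with the package affy. Versions are not given in the sources used here, nor are array batches. Of 35556 probe sets, 21789 had 1 gene symbol, 1621 several and 12146 none. Symbols were updated through RefSeq by Entrez identifier (21698 probe sets) or symbol (68), and for 999 genes with several probe sets the brightest over all 9 arrays was used. All 9 arrays entered a fit with a mean per line in limma 3.58.1 (R 4.3.3), with 6 residual degrees of freedom, no other covariate and no brightness filter, and the Benjamini-Hochberg adjustment ran over 19938 genes. Comparisons were MR20 against 4T1, MR20 against DR500 and DR500 against 4T1. Where a brightness filter is named, it keeps 11288 genes whose highest value on any of the 9 arrays exceeds 6.74, the median of such values over all probe sets. Annotation of the arrays is older than RefSeq's build GRCm38.p6, from which only chromosomes, gene order and promoters were taken.

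The comparison, gene lists and families were chosen with earlier results of these data known. Named genes are, outside the interferon list, the 15 largest called falls and rises whose arrays do not overlap, the members of each list that changed most and passed the test, up to 6, Tyms, Slc19a1, Fpgs and Ggh, and members with an adjusted p under 0.05 of the 3 lowest and 3 highest runs of 25 genes. Other genes were named after their values were seen. Tested on simulated data of this comparison over 19938 genes, the fit found 40 of 50 genes changed 1.5-fold, 48 of 50 changed 2.5-fold and all 50 changed 4-fold or 8-fold, and gave an adjusted p under 0.05 to 11 of 19738 unchanged genes. Alternatives were a fit of only these 6 arrays, the brightness filter, a repeated quantile normalization, centring on array medians, the mean of probe sets, an intensity trend, a replicate block and leaving out each array. The number of arrays limits the precision.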

Additional observations from a re-analysis of the deposited data

Results flagged for a closer look

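Among the 30 largest changes outside the interferon list, a pair of genes was called in opposite directions in MR20 and DR500. Cmbl was 6.40 lower on the log2 scale in MR20 than in DR500 (difference -6.40, adjusted p = 1.57e-10 from limma), having fallen by 3.45 in MR20 and risen by 2.95 in DR500. Tfpi was 4.44 higher in MR20 than in DR500 (adjusted p = 1.46e-10), having risen by 3.43 in MR20 and fallen by 1.01 in DR500.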

How the results depend on the processing

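Counts of genes that rose, fell and were called stayed within 1.5 times of the reported ones under all alternatives run. Leaving out each array in turn, the genes that rose numbered 2499 to 2792 and the genes that fell 2929 to 3155, with 260 to 291 called rises and 198 to 229 called falls. The amino acid enzymes that fell numbered 19 to 20, the ATF4 targets 39 to 42, the organic acid genes 27 to 29, the small nucleolar RNAs 23 to 33, the serpins that rose 9 to 10 and the keratin and envelope genes that rose 11 to 14. Leaving out 4T1 replicate 2 or 4T1 replicate 3 gave the lowest of these, 11. With dim genes removed, 10 keratin and envelope genes and 5 serpins rose, because fewer were tested. The chromosome 13 median of 0.21 became 0.24 after repeated quantile normalization, 0.25 after centring arrays on their median and 0.07 over all genes, and that of chromosome 14, -0.39, became -0.35 after centring and -0.12 over all genes. Leaving out arrays gave 0.19 to 0.23 and -0.40 to -0.38. Of 299 named genes with an adjusted p under 0.05, 9 to 14 lost the threshold when an array was left out. Relative to the chromosome median 31 lost it, the most of any alternative, and Ankrd28 (0.001) and Eaf1 (0.022) changed sign. The replicate numbers did not pair the arrays, since deviations of arrays of the same number correlated at -0.0784, 0.045 and -0.237. With the replicate block, the genes that rose numbered 3015 and the genes that fell 3391, and calls numbered 281 and 216. With genes above the filter only, the lowest runs of 25 were on chromosomes 17 (Trim39 to B230354K17Rik, -0.70) and 14 (-0.59 and -0.55). With runs of 15 all 3 lowest were on chromosome 14 (-0.64, -0.53 and -0.52). None of the 3 raised runs recurred with the same ends under these alternatives. They lay on chromosomes 7 (0.44 and 0.41) and 11 (0.41) with the filter and on 11 (0.46), 6 (0.43) and 3 (0.41) with runs of 15, and none on chromosome 13.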
